A study of Anas platyrhynchos with 6 samples.

Results

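Immediate early transcription factors were described in ovarian tissue of 6 ducks (Anas platyrhynchos) aged 71 weeks, 3 of which had laid many eggs (HEN, high egg number) and 3 few (LEN, low egg number). The 6 genes FOS, FOSL2, JUN, ATF3, EGR1 and MYC were taken by their symbol in the table of expression values, and each had 1 row, so that 6 of 16450 genes are described. All ducks came from a full-sib family, feed was withheld for 12 h before they were killed, and each ovary gave 1 RNA sequencing library. No treatment separated the groups: they were formed by the number of eggs laid. The ovaries are numbered below by the replicate numbers of the labels, and values without numbers follow that order. Values were FPKM, fragments scaled to transcript length and library size. Comparisons between genes depend on the transcript length used for each row, which could only be inferred here.

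Immediate early genes are transcribed soon after a cell receives a growth factor, hormone or stress signal, without new protein synthesis. Many of their products are transcription factors that set the later response. FOS and FOSL2 pair with JUN through a leucine zipper to form the AP-1 factor, whereas FOS does not pair with itself. ATF3 belongs to the related ATF/CREB family and can pair with JUN, EGR1 is a zinc finger factor, and MYC acts as a pair with MAX. In rodent ovaries, FOS, JUN and EGR1 are known to be induced by gonadotropins in granulosa cells.

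The libraries held about 18213744 to 19831761 fragments each, as inferred from the steps between low values. HEN replicates 2 and 3 stood apart: they correlated at 0.965 with each other across 13328 transcripts, on the log2(FPKM + 1) scale, but at 0.634 to 0.779 with the other 4 libraries, while HEN replicate 1 correlated at 0.933 to 0.964 with LEN. The summed level of the 7 measured oocyte and germ cell markers, of 15 listed, was 497, 9.57 and 8.66 FPKM in HEN ovaries 1, 2 and 3, against 726, 529 and 1316 FPKM in LEN ovaries 1, 2 and 3. Of these markers, DAZL and DDX4 were at 0 in HEN replicate 2. SYCP3, whose position overlaps another gene, went the other way, with a difference of 0.22. It made up 8.10 and 5.30 FPKM of the sums in HEN replicates 2 and 3. The 7 granulosa markers measured, of 11 listed, summed to 364, 124 and 149 FPKM in HEN ovaries and 354, 374 and 335 FPKM in LEN ovaries. Of these, FST and INHBA had positive differences (0.36 and 0.47). The row of the ovarian factor FOXL2 was above 0 in all 6 libraries, but its position overlaps another gene, as does that of NR5A1. Of the granulosa sums, FOXL2 made up 175.5, 33.1 and 55.2 FPKM in HEN ovaries and 151.6, 154.3 and 152.7 FPKM in LEN ovaries. The 11 leukocyte markers measured, of 14 listed, summed to 715, 1065 and 1337 FPKM in HEN ovaries and 402, 702 and 365 FPKM in LEN ovaries. Of that sum, CD74, whose position overlaps another gene, made up 522, 602 and 724 FPKM in HEN ovaries and 282, 512 and 246 FPKM in LEN ovaries. The lymphocyte markers CD3E, CD4, CD79B and PAX5 had negative differences (-0.67, -0.31, -0.23 and -1.56). The position of CD3E overlaps another gene, and CD4, CD79B and PAX5 were low, with means of 1.91, 1.62 and 1.26 FPKM over the 6 ovaries. Without HEN replicate 1, CD4 differed by 0.0154. The 11 endothelium markers summed to 217, 458 and 405 FPKM in HEN ovaries and 151, 261 and 170 FPKM in LEN ovaries. Of these, EGFL7, whose position overlaps another gene, had a negative difference (-0.17). In bulk tissue, fewer cells of a type and less RNA per cell cannot be told apart. Beside the differences over all libraries, those without HEN replicates 2 and 3 are given; there the remaining HEN library stands alone and is assumed to vary like the LEN libraries.

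FOS and JUN, the founding pair of AP-1, were high in all ovaries and overlapped between the groups. FOS (ENSAPLG00000011284, scaffold KB742685.1 from 132403 to 134032, forward strand) was at 73.4, 50.6 and 39.0 FPKM in HEN ovaries 1, 2 and 3, against 60.7, 40.9 and 52.7 FPKM in LEN ovaries 1, 2 and 3. The highest and the lowest of the 6 FOS levels were both in HEN ovaries. The difference was 0.05 ± 0.29 (SE) on the log2(FPKM + 1) scale, with a 95% interval of -0.65 to 0.75 (limma, adjusted p = 0.923). Without HEN replicates 2 and 3 it was 0.52 ± 0.31. Its direction turned to -0.19 ± 0.23 without HEN replicate 1 and to -0.11 ± 0.34 without LEN replicate 2.

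JUN (ENSAPLG00000005928, scaffold KB743412.1 from 2014943 to 2015905, forward strand) was the most abundant of the 6 and lay above 97.8% to 98.7% of the 13328 transcripts in each library. It was at 213, 342 and 181 FPKM in HEN ovaries and at 246, 179 and 208 FPKM in LEN ovaries. Only HEN replicate 2 lay above all LEN ovaries. JUN differed by 0.17 ± 0.29 (SE), with an interval of -0.51 to 0.86 (limma, adjusted p = 0.699), by -0.09 ± 0.26 without HEN replicate 2 and by 0.02 ± 0.31 without HEN replicates 2 and 3.

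FOSL2 and ATF3, which are expressed at lower levels, varied most. FOSL2 (ENSAPLG00000009204, scaffold KB742444.1 from 1554427 to 1560059, reverse strand), a FOS relative that lacks the strong activation domain of FOS, was at 7.75, 22.3 and 31.0 FPKM in HEN ovaries 1, 2 and 3, against 8.58, 13.5 and 3.71 FPKM in LEN ovaries 1, 2 and 3. HEN replicates 2 and 3 lay above all LEN ovaries, whereas HEN replicate 1 lay below 2 of them. FOSL2 stood above 30.5%, 72.2% and 80.2% of transcripts within the 3 HEN libraries and above 33.0%, 45.8% and 16.4% within the 3 LEN libraries. Its highest level was 8.35 times its lowest, where that ratio was 1.88 for FOS. The difference was 1.11 ± 0.60 (SE), with an interval of -0.31 to 2.52 (limma, adjusted p = 0.271). Without LEN replicate 3 it was 0.67 (adjusted p = 0.574), and without HEN replicate 3 it was 0.72 (adjusted p = 0.618).

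ATF3 (ENSAPLG00000012304, scaffold KB742734.1 from 1474247 to 1476861, reverse strand), a stress-inducible factor, was at 8.67, 35.0 and 16.6 FPKM in HEN ovaries and at 5.07, 9.87 and 5.63 FPKM in LEN ovaries. The groups overlapped through HEN replicate 1, which lay below LEN replicate 2, and 8 of 9 HEN and LEN pairs had the higher level in HEN. The difference of 1.27 ± 0.51 (SE) was the largest of the 6, with an interval of 0.07 to 2.47 (limma, adjusted p = 0.226, unadjusted p = 0.0414). Without HEN replicate 2 it was 0.78 (adjusted p = 0.559).

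EGR1 (ENSAPLG00000002018, scaffold KB743364.1 from 1297689 to 1298993, forward strand) was the only one of the 6 whose groups did not overlap. It was at 49.4, 65.3 and 76.4 FPKM in HEN ovaries 1, 2 and 3, against 47.5, 46.0 and 39.4 FPKM in LEN ovaries 1, 2 and 3. HEN replicate 1 lay just above the highest LEN ovary, on 1225 fragments against 1191 in LEN replicate 1. The margin was wider for the other HEN ovaries. Whether the groups stay apart under other scalings was not tested. Ranked within each library, EGR1 stood above 85.3%, 92.1% and 93.9% of transcripts in HEN and above 84.6%, 84.8% and 77.5% in LEN. Among all 13328 transcripts, 6.92% had every HEN level above every LEN level, so that 1 of 6 is not a result about the set. The difference was 0.50 ± 0.24 (SE), with an interval of -0.06 to 1.05 (limma, adjusted p = 0.238). An exact two-sided permutation test gave p = 0.1, the smallest that 3 against 3 ducks allow. That value depends on the same narrow gap between HEN replicate 1 and LEN replicate 1.

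MYC (ENSAPLG00000013997, scaffold KB742977.1 from 113954 to 115536, reverse strand), a driver of growth and ribosome production, was at 19.7, 24.7 and 34.96 FPKM in HEN ovaries and at 22.7, 23.6 and 21.9 FPKM in LEN ovaries. The LEN levels were close together, with an SD of 0.05 on the log2(FPKM + 1) scale against a median of 0.28 over all transcripts within LEN, and the HEN levels lay on both sides of them. MYC differed by 0.17 ± 0.26 (SE), with an interval of -0.45 to 0.79 (limma, adjusted p = 0.672), by -0.04 ± 0.27 without HEN replicate 3 and by -0.20 ± 0.28 without HEN replicates 2 and 3.

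**Figure D1:**
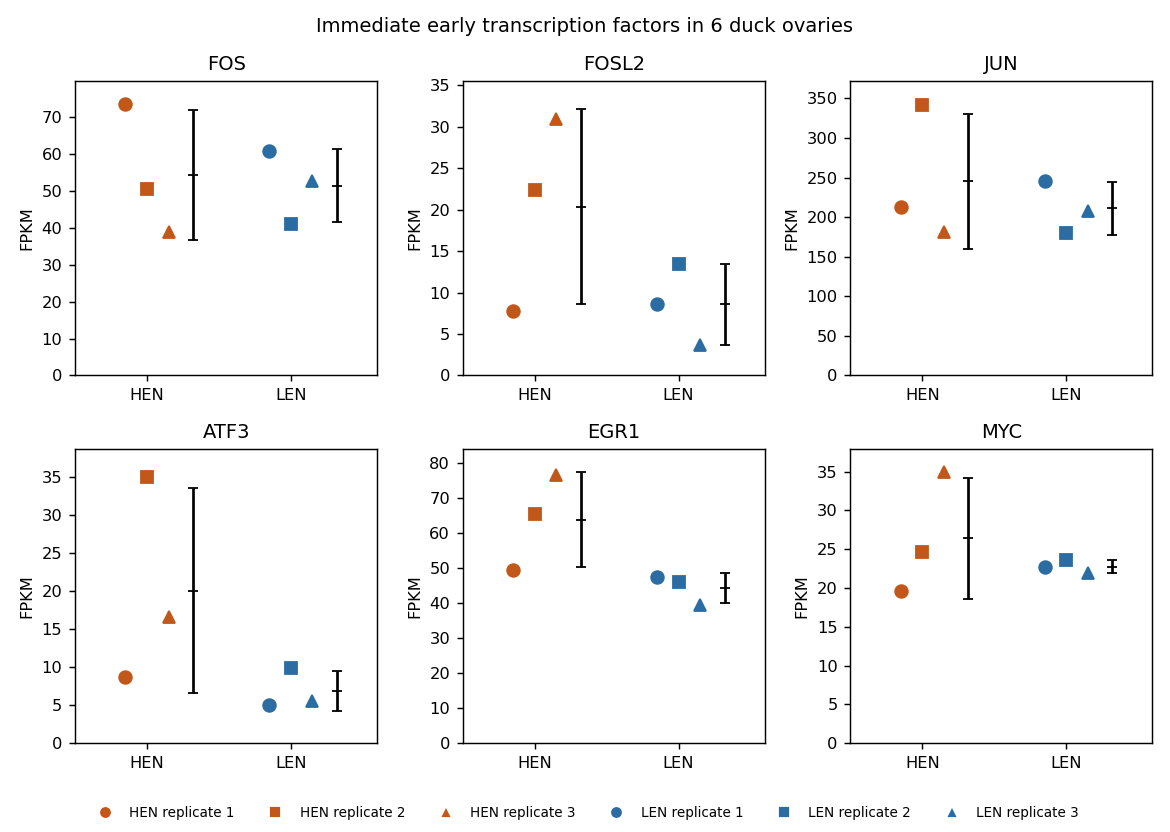
FPKM of each factor (vertical axes from 0, in FPKM) in the HEN and LEN ovaries, with 1 symbol per replicate number and the mean ± SD of 3 ovaries beside the points. The groups overlap in every panel except EGR1, and in the FOSL2 and ATF3 panels HEN replicate 1 lies near LEN while HEN replicates 2 and 3 lie above it.

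The comparison of the groups asked which transcripts of the ovary separate the 2 laying groups, and none of the 6 factors passed it. limma found 0 of 6 at an adjusted p under 0.05, where 0.0% of 13328 transcripts passed. At an unadjusted p under 0.05 there was 1 of 6 (ATF3, with a higher mean in HEN), against 22.0% of all transcripts, of which HEN was above LEN for 5.1% and below it for 16.9%. In the exact permutation tests the two-sided p values were 1 for FOS, 0.3 for FOSL2, 0.6 for JUN, 0.2 for ATF3 and 0.7 for MYC. All 6 had a mean above 0 for HEN minus LEN, as had 37.1% of all transcripts, and their median difference was 0.33 against -0.24 over all transcripts. The 6 were chosen with earlier results of these data known, so this contrast is not independent evidence about the set. Scaling by trimmed means moved the median of all transcripts to 0.00 and that of the 6 factors to 0.60. The differences were then 0.31 for FOS, 1.36 for FOSL2, 0.44 for JUN, 0.76 for EGR1, 1.52 for ATF3 and 0.43 for MYC. All 6 were again above 0 and none passed the threshold. This count of signs depended on the libraries used. It fell to 5 when any single HEN library was dropped, and likewise when LEN replicate 2 was dropped. Weighting the libraries by limma's arrayWeights left 4 above 0. When HEN replicate 1 stood alone against LEN, 5 were above 0. The median of the factors was then 0.09, against -0.0012 over all transcripts.

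Without HEN replicate 1, FOSL2, ATF3 and EGR1 passed the test. FOSL2 then differed by 1.65 ± 0.43 (SE, limma, adjusted p = 0.0132), ATF3 by 1.73 ± 0.37 (adjusted p = 0.00554) and EGR1 by 0.67 ± 0.20 (adjusted p = 0.0222). In the same setting 48.8% of all transcripts passed, 11.8% as higher and 37.0% as lower in HEN, and FOS, JUN and MYC did not pass. With limma's arrayWeights, which gave HEN replicate 1 the smallest weight, FOSL2, ATF3 and EGR1 also passed as higher. There 59.4% of all transcripts passed, 16.5% as higher and 43.0% as lower. Both settings remove or reduce the part of HEN replicate 1, the HEN library most like LEN, so they are not separate checks. Without HEN replicates 2 and 3, the differences of FOSL2, ATF3 and EGR1 were 0.01 ± 0.59, 0.35 ± 0.43 and 0.16 ± 0.27, and 0.0075% of all transcripts passed. HEN replicates 2 and 3 are also the libraries with the lowest summed oocyte and granulosa markers and the highest leukocyte and endothelium sums. Each list had the exceptions given above. The part of these cell types in the levels of FOSL2, ATF3 and EGR1 was not tested.

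**Figure D2:**
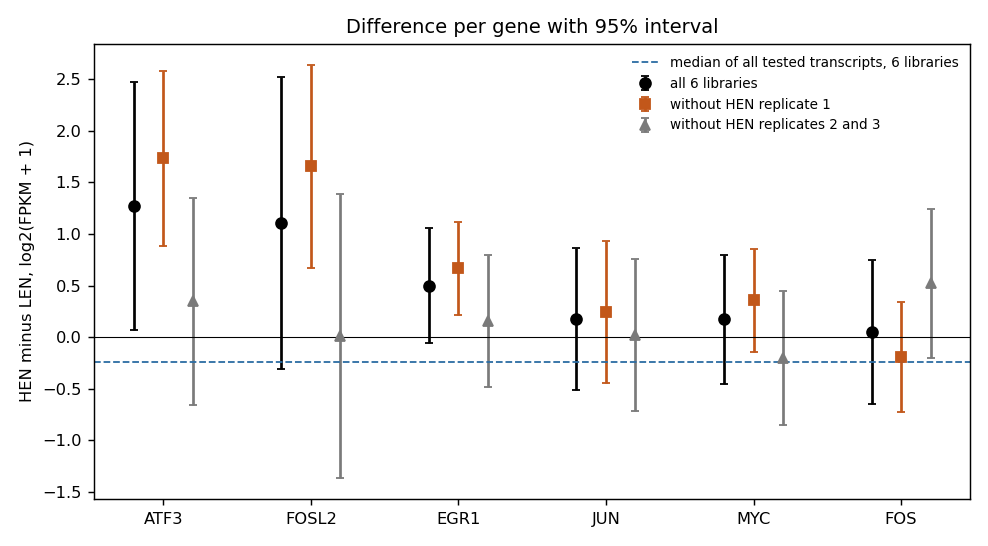
HEN minus LEN on the log2(FPKM + 1) scale (vertical axis) for each factor, with 95% intervals from limma, over all 6 libraries, without HEN replicate 1 and without HEN replicates 2 and 3; the dashed line is the median of all tested transcripts at -0.24. The intervals of FOSL2, ATF3 and EGR1 lie above 0 without HEN replicate 1 and include 0 without HEN replicates 2 and 3.

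Ratios between the factors within a library do not depend on the scaling of that library. Those given here were chosen after the values were seen and have no test. FOSL2 over FOS was 0.106, 0.442 and 0.794 in HEN replicates 1, 2 and 3, against 0.141, 0.330 and 0.0704 in LEN replicates 1, 2 and 3. ATF3 over JUN was 0.0407, 0.102 and 0.0919 in HEN and 0.0206, 0.0550 and 0.0270 in LEN. Both ratios were highest in HEN replicates 2 and 3 and, among the LEN ovaries, in LEN replicate 2. Not every ratio followed this order: MYC over FOS was 0.268, 0.488 and 0.896 in HEN and 0.374, 0.577 and 0.415 in LEN, and JUN over the sum of FOS and FOSL2 was 2.63, 4.69 and 2.59 in HEN and 3.55, 3.30 and 3.69 in LEN. The summed level of FOS and FOSL2 varied less, at 81.2, 72.9 and 69.97 FPKM in HEN ovaries and 69.3, 54.4 and 56.4 FPKM in LEN ovaries. FOS was the lower of the pair in no library.

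**Figure D3:**
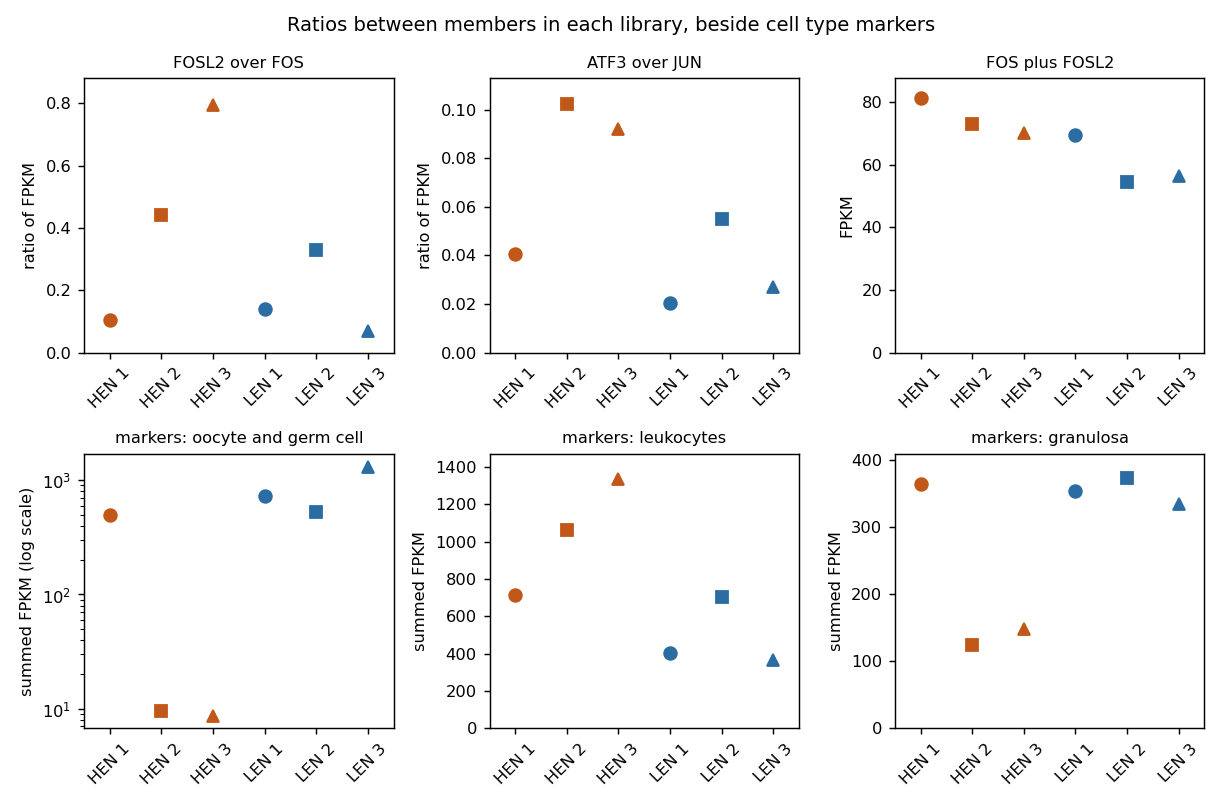
Upper row, FOSL2 over FOS and ATF3 over JUN (ratios of FPKM) and the sum of FOS and FOSL2 (FPKM) in each library; lower row, summed FPKM of oocyte and germ cell (log scale), leukocyte and granulosa markers. HEN replicates 2 and 3 have the highest values of both ratios, the highest leukocyte sums and the lowest germ cell and granulosa sums.

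Across the 6 libraries the factors did not follow 1 pattern. Of their 15 pairs, FOSL2 and EGR1 were the most alike, with a Pearson r of 0.93 on the log2(FPKM + 1) scale. FOSL2 with ATF3 and EGR1 with MYC reached 0.80. The r was 0.79 for EGR1 with ATF3 and for FOSL2 with MYC, and 0.48 for ATF3 with MYC. FOS had negative values with MYC (r = -0.78), FOSL2 (r = -0.60), EGR1 (r = -0.42) and ATF3 (r = -0.39), and an r of 0.34 with JUN. JUN had an r of -0.225 with MYC. These values rest on 6 libraries of which 2 stand apart, and describe these libraries only. FOSL2 and EGR1 shared their pattern with many transcripts: of 9465 others with a symbol on 1 row, 427 had an r above 0.95 with FOSL2 and 284 with EGR1, against 167 with ATF3, 41 with MYC, 6 with JUN and 1 with FOS.

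The transcripts most like each factor were named by the highest r over the 6 libraries. For FOSL2 they were BEND3 (r = 0.999), CHSY1, a chondroitin synthase (0.998), and ZZEF1 (0.997). For EGR1 they were PLEKHO1 (0.998), the secreted metalloprotease ADAMTS12, whose position overlaps another gene (0.997), and C1QTNF6 (0.996). PLEKHO1 was at 21.99, 42.0 and 55.8 FPKM in HEN ovaries and 21.0, 20.3 and 15.1 FPKM in LEN ovaries. For ATF3 they were TRAM1, a component of the translocation channel of the endoplasmic reticulum (0.993), the sulfotransferase CHST14 (0.992) and the 14-3-3 protein gene YWHAZ (0.992). For MYC they were CD40LG (0.982), FAM107B (0.982) and AZIN1, the antizyme inhibitor (0.980), which was at 59.7, 100.3 and 171 FPKM in HEN ovaries and 72.9, 73.4 and 68.6 FPKM in LEN ovaries. For JUN they were the signal peptidase subunit SPCS3 (0.980), the orphan receptor GPR27 (0.963) and the ribosomal protein gene RPL3 (0.955), whose position overlaps another gene. For FOS they were the mitochondrial ribosomal protein gene MRPL16 (0.958), the matrix proteoglycan gene PRELP (0.945) and the keratin gene KRT19 (0.941), which overlaps another gene.

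Other immediate early genes had differences in both directions, and none of 37 measured (55 listed) passed in limma over all transcripts. From this list and those below, up to 4 genes each were named for the smallest unadjusted p in this contrast. They do not stand for their lists. The median difference of the 37 genes was 0.21, with 24 above and 13 below 0. It was -0.10 without HEN replicates 2 and 3, and 0.47, 0.48 and 0.55 after scaling by trimmed means, the upper quartile or quantiles. At an unadjusted p under 0.05, 6 had higher and 3 had lower HEN levels, beside 5.1% and 16.9% of all transcripts. The groups did not overlap for 5 higher and 3 lower genes, where 6.92% and 13.4% of all transcripts did so. CTGF, a matricellular protein induced by growth factors, was at 414, 738 and 362 FPKM in HEN ovaries and 179, 221 and 152 FPKM in LEN ovaries. Its difference was 1.40 ± 0.32 (SE, limma, adjusted p = 0.226, unadjusted p = 0.00332). The adjustment gives this same value of 0.226 to genes of unlike unadjusted p, among them ATF3 (limma, unadjusted p = 0.0414). Equal adjusted p values, here and below, therefore do not mean equal evidence. Each HEN level of CTGF was above each LEN level, and it differed by 1.18 ± 0.33 without HEN replicates 2 and 3.

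PTGS2, the inducible prostaglandin synthase, was at 8.64, 141 and 160.5 FPKM in HEN ovaries 1, 2 and 3, against 4.25, 7.08 and 5.67 FPKM in LEN ovaries 1, 2 and 3. The HEN ovaries with high PTGS2 were those with high FOSL2, and PTGS2 differed by 3.20 ± 1.03 (SE) over all libraries and by 0.55 ± 0.39 without HEN replicates 2 and 3. The zinc finger gene KLF6 was at 17.3, 60.1 and 36.9 FPKM in HEN ovaries and 14.8, 16.2 and 9.15 FPKM in LEN ovaries, and differed by 1.31 ± 0.47, or 0.38 ± 0.38 without HEN replicates 2 and 3. HBEGF, a growth factor that binds the EGF receptor, was at 18.6, 8.02 and 7.97 FPKM in HEN ovaries and 25.3, 18.9 and 38.7 FPKM in LEN ovaries, a difference of -1.24 ± 0.41 (SE), or -0.49 ± 0.40 without HEN replicates 2 and 3. Without HEN replicate 1, 13 of the 37 genes were called higher and 9 lower, beside backgrounds of 11.8% and 37.0%.

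Of the direct paralogs only EGR3, EGR4 and MYCN were analysed here. EGR3 was at 3.67, 1.21 and 1.83 FPKM in HEN ovaries and 3.55, 3.59 and 6.86 FPKM in LEN ovaries, and differed by -0.83 ± 0.40 (SE, limma, adjusted p = 0.241), the opposite sign to EGR1, or by -0.23 ± 0.45 without HEN replicates 2 and 3. These levels rested on 15 to 83 fragments. MYCN, on 10 to 41 fragments, was at 1.76, 0.610 and 0.449 FPKM in HEN ovaries and 1.27, 1.07 and 1.07 FPKM in LEN ovaries, and differed by -0.20 ± 0.35, by 0.48 ± 0.28 after quantile normalization and by 0.37 ± 0.42 without HEN replicates 2 and 3. EGR4 was at 0 to 0.189 FPKM and was below the filter of a mean of 1 FPKM.

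Among 10 measured AP-1 and ATF partners (17 listed) the median difference was 0.04, or 0.30 after scaling by trimmed means, with 5 above and 5 below 0, and none passed. BATF, which pairs with JUN and lacks an activation domain, was at 2.65, 1.85 and 1.65 FPKM in HEN ovaries and 5.11, 3.57 and 3.79 FPKM in LEN ovaries, a difference of -0.76 ± 0.29 (SE, limma, adjusted p = 0.226). Without HEN replicates 2 and 3 it was -0.49 ± 0.39. The BATF levels rested on 25 to 82 fragments. BATF was the 1 of the 10 genes whose groups did not overlap, as lower in HEN, beside 13.4% of all transcripts. JDP2, a zipper factor that pairs with JUN and represses AP-1 targets, was at 25.8, 30.8 and 19.6 FPKM in HEN ovaries and 21.3, 15.5 and 13.3 FPKM in LEN ovaries, a difference of 0.58 ± 0.28 with overlapping groups, and 0.62 ± 0.34 without HEN replicates 2 and 3. The zipper factor MAF differed by 0.90 ± 0.35, and BATF3, a factor of dendritic cells, by -1.41 ± 0.64. BATF3 was at 31.0, 10.4 and 3.70 FPKM in HEN ovaries and 33.0, 26.6 and 33.3 FPKM in LEN ovaries, on 19 to 179 fragments. MAF differed, without HEN replicates 2 and 3, by 0.36 ± 0.39 and BATF3 by 0.0077 ± 0.29, the opposite sign.

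In the EGR family list, 3 genes were tested and all had negative differences, where only 37.1% of all transcripts had a difference above 0. The shared sign is therefore not a result about the list. WT1, a zinc finger factor of granulosa and stromal cells that binds sites like those of EGR1, was at 57.3, 29.2 and 21.3 FPKM in HEN ovaries and 81.9, 73.5 and 64.7 FPKM in LEN ovaries, a difference of -1.12 ± 0.37 (SE, limma, adjusted p = 0.226). Every HEN level of WT1 was below every LEN level, as for 13.4% of all transcripts, and WT1 is also 1 of the granulosa markers summed above. Without HEN replicates 2 and 3 it differed by -0.34 ± 0.28. NAB1, a corepressor that binds EGR proteins, differed by -0.16 ± 0.20, by 0.10 ± 0.20 after scaling by trimmed means and by -0.04 ± 0.28 without HEN replicates 2 and 3.

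The MYC network list (10 tested of 14 listed) had a median difference of -0.07, or 0.11 after scaling by trimmed means, with 5 above and 5 below 0. MNT and MXI1, which pair with MAX and oppose MYC, and MLX, which takes the place of MAX in related pairs, were lower in every HEN ovary than in any LEN ovary. MNT was at 18.6, 11.1 and 14.5 FPKM in HEN ovaries and 25.4, 22.8 and 30.5 FPKM in LEN ovaries, a difference of -0.81 ± 0.27 (SE, limma, adjusted p = 0.226). MLX differed by -0.99 ± 0.34, MXI1 by -0.81 ± 0.30 and ZBTB17, a MYC partner whose position overlaps another gene, by -0.88 ± 0.39. The differences without HEN replicates 2 and 3 were -0.47 ± 0.30 for MNT, -0.35 ± 0.33 for MLX, -0.45 ± 0.37 for MXI1 and -0.01 ± 0.30 for ZBTB17. MXD1 and MXD4, named after their values were seen, also pair with MAX and oppose MYC but had positive differences of 0.57 and 0.48, and every HEN level of MXD1 was above every LEN level. In all, the groups did not overlap for 3 of the 10 as lower and 1 as higher, beside 13.4% and 6.92% of all transcripts.

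Of 26 measured signal and promoter factors upstream of immediate early genes (31 listed), 18 had a difference above and 8 below 0, with a median of 0.22, and none passed. That median was 0.46, 0.47 and 0.50 after scaling by trimmed means, the upper quartile or quantiles, and 0.07 without HEN replicates 2 and 3. RPS6KA1, a kinase activated by ERK, was at 55.2, 14.5 and 18.2 FPKM in HEN ovaries and 72.4, 74.9 and 106 FPKM in LEN ovaries, a difference of -1.72 ± 0.49 (SE, limma, adjusted p = 0.226). ELK3, an ETS factor that binds serum response elements, was at 16.8, 43.0 and 31.9 FPKM in HEN ovaries and 12.0, 16.6 and 8.48 FPKM in LEN ovaries, a difference of 1.19 ± 0.40. MAP2K4, a kinase that activates JNK, differed by -0.996 ± 0.34, and CREM, a cAMP response factor, by 0.59 ± 0.23. These 4 differed, without HEN replicates 2 and 3, by -0.58 ± 0.32, 0.47 ± 0.40, -0.31 ± 0.30 and 0.29 ± 0.29. Their groups did not overlap, but these 4 were named for the smallest unadjusted p in this contrast, so that is no separate result. In all, the groups did not overlap for 4 higher and 3 lower genes of the 26, beside 6.92% and 13.4% of all transcripts.

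**Figure D4:**
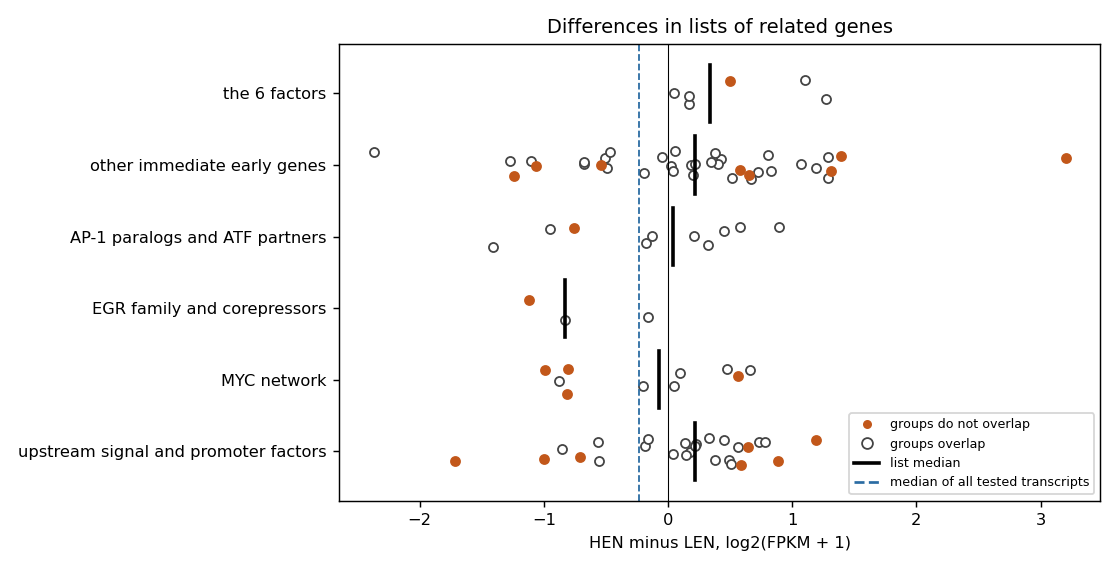
HEN minus LEN on the log2(FPKM + 1) scale (horizontal axis) for the 6 factors and for each tested gene of the 5 lists; filled points have groups that do not overlap, bars are medians and the dashed line is the median of all tested transcripts. The medians lie above the dashed line in 5 of the 6 rows and below it in the EGR family row.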

How the data were processed

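TRIzol RNA of frozen ovaries from 6 ducks was sequenced from standard Illumina libraries, per the labels' protocols. The authors deposited 1 table, named as FPKM values, for 17191 rows of Ensembl duck transcripts (17169 after folding repeated rows). The aligner, counter, strandedness and genome build are not given in the sources used here, and coordinates are those of the table. Lists also used 710 symbols matched by Entrez identifier in a RefSeq table of another assembly (IASCAAS_PekinDuck_T2T). The 1842 transcripts that overlap another gene's position cannot be separated from it, and the 6 factors do not overlap any. Reads shared with paralogs could have been split by the authors' counting.

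Values were analysed as log2(FPKM + 1), which understates changes of low genes, for the 13328 transcripts whose mean reached 1 FPKM. The group comparison used limma 3.58.1 under R 4.3.3 (trend, group only, Benjamini-Hochberg over all transcripts, threshold 0.05), and each factor with an exact permutation test. FPKM were not used in count tests. Depth was inferred from short noncoding transcripts, for which 100% of 951 values under 200 fragments were whole within 0.02. With the smallest length that makes every library whole, the factors rested on at least 61 (FOSL2, LEN replicate 3) to 5675 (JUN, HEN replicate 2) fragments. The 95% Poisson interval of 61 is 46.7 to 78.4, and such intervals cover counting error only. The limma step was tested on simulated data: with the spread of LEN, it recovered 2%, 20%, 62% and 86% of 50 genes each at 1.5, 2, 4 and 8 fold among 13328. The real HEN libraries varied more, with a median SD of 0.47 on the log2(FPKM + 1) scale against 0.28 within LEN. These shares therefore do not give the recovery in the real data.

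The members and lists were chosen with earlier results of these data known. One gene is not reported here and was left out of its list. Named were the 6 factors, their paralogs, up to 4 genes with the smallest unadjusted p per list and the 3 most similar transcripts per factor. Of the markers of 7 cell types, those of theca and stroma, smooth muscle, endothelium and erythrocytes had median differences of 0.73, 0.78, 0.62 and 0.61. These lists held 8, 6, 11 and 2 measured genes. CYP17A1 of the theca and stroma list (-4.48) and EGFL7 of the endothelium list (-0.17) went the other way. Without HEN replicates 2 and 3 these medians were 0.55, 0.79, 0.24 and -0.66. Alternatives tried were a pseudocount of 0.1 or 0.01, an absent filter or one at 5 FPKM, TPM, upper quartile, trimmed mean and quantile scaling, robust, untrended and weighted limma, a replicate block, values summed per symbol, and leaving out libraries. The labels give no batch. Ducks are separate animals, but p values measure only the spread between them.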

Additional observations from a re-analysis of the deposited data

How the results depend on the processing

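Over all 13328 transcripts limma made 0 calls, 1 with a pseudocount of 0.1, 7922 with arrayWeights, and 0 to 6501 on leaving out 1 library each. With no filter it made 4 calls, over 17169 transcripts. In the main setting 2929 transcripts had an unadjusted p under 0.05. Of the 6 factors, 0 passed, 3 with arrayWeights, and 0 to 3 on leaving out 1 library. With arrayWeights, which gave HEN replicate 1 a weight of 0.114 against 0.556 to 5.62 for the others, FOSL2 passed at 1.49, EGR1 at 0.60 and ATF3 at 1.74, while FOS (-0.36) and JUN (-0.0087) turned negative. On leaving out 1 library the differences ranged from -0.19 to 0.26 for FOS, 0.67 to 1.65 for FOSL2, -0.093 to 0.36 for JUN, 0.36 to 0.67 for EGR1, 0.78 to 1.73 for ATF3 and -0.0428 to 0.36 for MYC. Without HEN replicates 2 and 3, MYC (-0.20), BATF3 (0.0077) and MYCN (0.37) changed sign. NAB1 changed sign after upper quartile (0.12), trimmed mean (0.10) and quantile scaling (0.0629), and MYCN after quantile normalization (0.48). The cause was not tested.

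The replicate number was treated only as a name. Deviations from the group means of same-numbered libraries correlated at 0.02, 0.38 and -0.42 for numbers 1, 2 and 3. Those of unlike numbers ranged from -0.49 (HEN 1 with LEN 2) to 0.46 (HEN 3 with LEN 2). Deviations within groups of 3 are tied to each other, so these values cannot show whether ducks were paired. With the replicate number as a block, limma made 0 calls; in this balanced design the block leaves each difference as it was. Low levels limit EGR3, EGR4, MYCN and BATF, and also BATF3 in HEN replicate 3. A lone HEN library is assumed to vary like LEN.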
